A study of Mus musculus with 11 samples.

Results

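The genes described here are Cftr, which encodes the apical chloride and bicarbonate channel of secretory epithelia, and 6 water channel genes of the aquaporin family, Aqp1, Aqp3, Aqp4, Aqp5, Aqp8 and Aqp11. They are 7 of the 34866 genes in the deposited table, and they were selected on measured values: the listing started from the rise of Cftr CPM over control in every engineered line. For that reason the levels of Cftr against control are a description and carry no test. The aquaporins were listed beside it as water channels of the same tissue. The study measured gene expression by bulk RNA sequencing in 11 samples of mouse gastric corpus mucosa, the acid-secreting part of the stomach. The control group was wild type (n = 2). The engineered lines (n = 3 each) were labelled GIF-DTR, ATP4B-DTR and, with both, GIF/ATP4B-DTR, made for the loss of chief cells (GIF-DTR), of parietal cells (ATP4B-DTR) or of both. DTR stands for the diphtheria toxin receptor, which makes mouse cells that carry it sensitive to diphtheria toxin, and Atp4b (a subunit of the parietal cell proton pump) and Gif (intrinsic factor, made by chief cells in the mouse) give the lines their names. The toxin treatment, its timing, and the age, sex and strain of the animals are not given in the sources used here. No label states that the samples of a group came from separate animals. By the Y-linked levels given below, ATP4B-DTR 1 did not come from the same animal as ATP4B-DTR 2 and 3. For the other samples of a group this is not known. The p-values therefore measure the spread between these samples, part of which may be technical.

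CFTR opens when protein kinase A phosphorylates it after a rise of cyclic AMP, and chloride and bicarbonate leave the cell through it, followed by sodium and water. Aquaporins are membrane pores through which water follows such osmotic gradients, and some of them, Aqp3 among them, also pass glycerol. In the normal stomach, Cftr is known as a gene of intestine, pancreatic duct and airway rather than of the corpus, Aqp4 as the basolateral water channel of deep corpus glands, Aqp3 as the basolateral channel of surface epithelium, Aqp1 as a channel of capillary endothelium, and Aqp5 as an apical channel of salivary and pyloric glands.

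The promoter of Cftr is shown because Cftr had the widest range of log2 CPM among the 6 tested genes, and that of Aqp3 because Aqp3 was the most abundant. Both are the 250 bases before the RefSeq start (GRCm38.p6, the build named mm10 in the submitters' processing notes), written 5′ to 3′ on the strand of the gene, with matches to the motifs GGGCGG (bound by SP1) and TATAAA (the letters bound by TBP), on either strand, in capitals.
Cftr, chr6:18170437-18170686, plus strand: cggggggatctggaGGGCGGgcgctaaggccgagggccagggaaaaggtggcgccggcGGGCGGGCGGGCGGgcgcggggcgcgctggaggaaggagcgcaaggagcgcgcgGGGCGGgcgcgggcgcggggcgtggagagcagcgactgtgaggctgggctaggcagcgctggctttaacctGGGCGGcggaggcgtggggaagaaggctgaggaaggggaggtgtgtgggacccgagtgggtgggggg
Aqp3, chr4:41098184-41098433, minus strand: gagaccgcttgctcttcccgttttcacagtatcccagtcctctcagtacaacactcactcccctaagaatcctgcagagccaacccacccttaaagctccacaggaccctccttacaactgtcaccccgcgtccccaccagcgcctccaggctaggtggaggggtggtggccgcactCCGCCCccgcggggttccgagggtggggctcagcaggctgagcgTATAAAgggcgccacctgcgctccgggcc
The Cftr window held 76.4% G and C and 30 CpG dinucleotides, a GC content at percentile 97.0 of 32851 mouse promoter windows of that length, whose median was 52.4%. It held GGGCGG 6 times, with 3 of these copies overlapping in 1 run, and TATAAA 0 times. Of all such windows 32.7% hold GGGCGG and 12.4% hold TATAAA. The Aqp3 window held 64.0% G and C, 1 GGGCGG and 1 TATAAA. Aqp5 had the highest GC content of the 6 windows matched, 78.4%, with GGGCGG 2 times. The Aqp5 window overlaps exons of annotated Aqp5 transcripts and is not printed. Also searched on both strands were TGACG (the core of a cyclic AMP response element), TGTTTAC and TGTTTGC (FOX factors), AGATAA (bound by Gata4 and its relatives), TTTATTG and TTTATGG (CDX factors) and CCAAT. None of these was in the Cftr or the Aqp3 window. They occur in 17.8%, 3.17%, 4.3%, 9.99%, 4.2%, 2.43% and 33.8% of all windows, in the order named.

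Levels are given as CPM, each gene's counts put on a common library total and scaled between libraries with edgeR's TMM factors. A change was called where the p-value of edgeR's quasi-likelihood test, adjusted by Benjamini-Hochberg over the 14889 genes tested, was under 0.05, and fold changes are log2 values ± SE. Library totals lay between 20689262 and 27946423 counts, so 3 counts correspond to between 0.107 and 0.166 CPM. The targeted cell types followed the line names in part. Both controls held Atp4b at 4786 and 4365 CPM, with 475 to 683 in ATP4B-DTR, 2136 to 3470 in GIF-DTR and 158 to 468 for GIF/ATP4B-DTR. Gif, which differed between the controls, was at 702 and 2303 CPM there, from 332 to 824 in ATP4B-DTR, from 65.5 to 196 in GIF-DTR and from 72.3 to 218 in GIF/ATP4B-DTR. Of 5 chief cell genes 0 passed the test in ATP4B-DTR (median log2 fold change −1.85). In GIF-DTR and GIF/ATP4B-DTR 3 each were lower (medians −3.36 and −3.59), beside 6.82% and 15.4% of all genes. The sum of the 5 was 85896 and 192479 CPM in the controls and 17004 to 62016 in ATP4B-DTR, below both controls. It was 5108 to 22615 in GIF-DTR and 2823 to 12425 in GIF/ATP4B-DTR. The samples were whole mucosa and not isolated metaplastic glands. Of the markers of spasmolytic polypeptide-expressing metaplasia (SPEM), Dmbt1 and Wfdc2 passed the test as higher in each line, Clu in 0 lines, Gkn3 in ATP4B-DTR alone, and Wfdc18 had too few counts to be tested. Of 4 mucous neck cell genes, 1 rose in ATP4B-DTR and 2 in each of the other lines, and 1 fell in each line, beside 12.2%, 9.97% and 18.2% of all genes called higher and 9.39%, 6.82% and 15.4% lower. Cd44 rose in each line and Glipr1 in GIF-DTR and GIF/ATP4B-DTR, Tff2 did not pass the test, and the mucin Muc6 fell from 384 and 333 CPM in the controls to between 5.57 and 90.6 CPM. Y-linked transcripts separated the samples in another way. Ddx3y stood between 40.9 and 53.3 CPM in the controls, ATP4B-DTR 1 and GIF/ATP4B-DTR 1 to 3, and at or below 0.0794 CPM in ATP4B-DTR 2 and 3 and GIF-DTR 1 to 3. In the same 5 samples Uty was at 1.63 to 3.31 CPM and Kdm5d at 0.621 to 2.94, against at least 23.5 and 27.1 CPM in the other 6; counts of both genes were fractional in all 11 samples. GIF-DTR thus differed fully in Y-linked level from the controls and from GIF/ATP4B-DTR. The labels give no sex, so GIF-DTR and sex can be told apart only through ATP4B-DTR, the one mixed group. A fit with the Y-linked level as a covariate was possible through that group. Its values for GIF-DTR rest on the split between ATP4B-DTR 1 and ATP4B-DTR 2 and 3.

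Of the 7 genes, 6 had enough counts to be tested and Aqp8 did not. Cftr was selected on its rise over control, so its place above the threshold follows from the choice and nothing is read from it. Of the 5 aquaporins tested, Aqp5 was called higher than control in each of the 3 lines and 0 were called lower. The samples of Aqp5 did not overlap the controls, nor did those of Aqp3 in GIF/ATP4B-DTR, as was the case for 48.5%, 48.0% and 56.3% of all genes in the 3 lines. Over all genes tested, 12.2% were called higher and 9.39% lower in ATP4B-DTR, 9.97% and 6.82% in GIF-DTR, and 18.2% and 15.4% for GIF/ATP4B-DTR. In either direction 21.6%, 16.8% and 33.6% of all genes were called, so 1 of 5 says nothing particular about the family. In bulk samples, more cells that express a gene and more RNA per cell cannot be told apart.

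**Figure D1:**
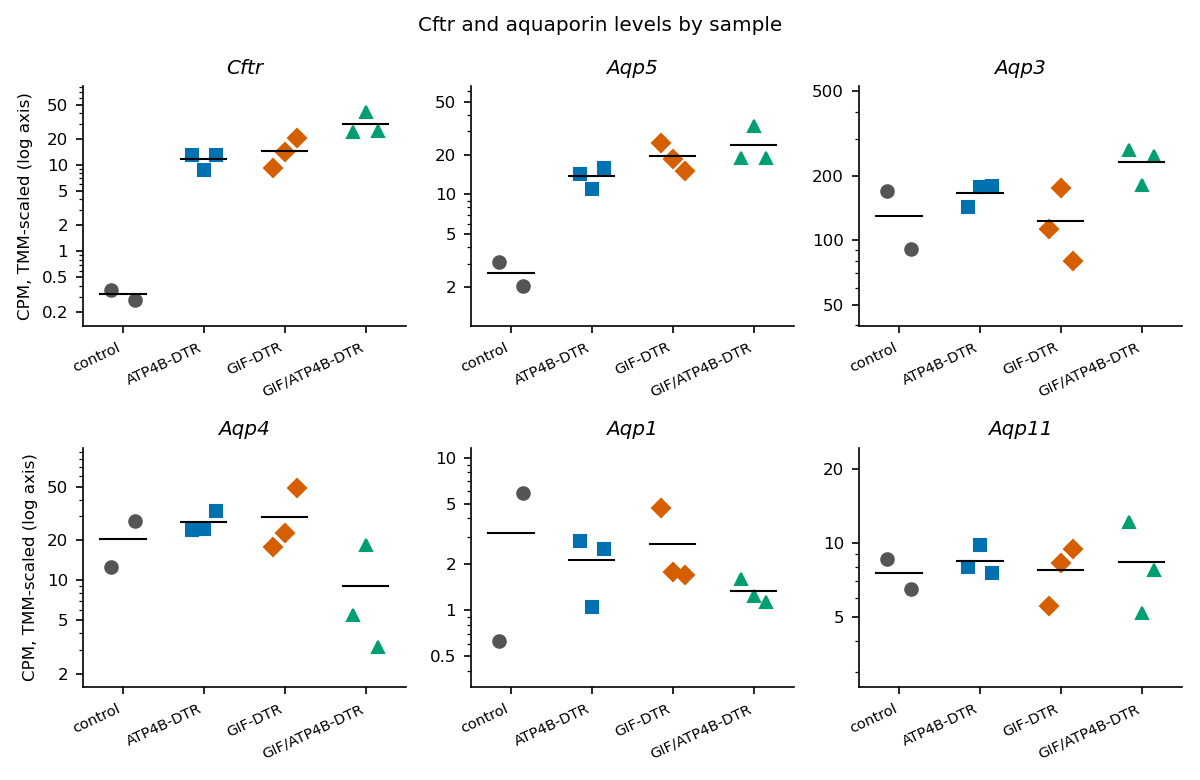
TMM-scaled CPM (log axis, range set for each gene) of the 6 tested genes in each of the 11 samples; points are samples and horizontal lines are group means. All 9 samples of the lines lie above both controls for Cftr and Aqp5, whereas the groups overlap for Aqp11.

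Cftr was close to the detection limit in wild-type corpus and clearly expressed in the lines. The controls held 8 and 5 counts, 0.359 and 0.277 CPM. ATP4B-DTR samples were at 13.2, 8.78 and 12.9 CPM, GIF-DTR samples at 9.18, 14.1 and 20.8 CPM, and GIF/ATP4B-DTR samples at 24.3, 41.2 and 25.01 CPM. Every line sample was above both controls by more than an order of magnitude, ATP4B-DTR and GIF-DTR overlapped, and the 3 GIF/ATP4B-DTR samples lay above the 6 samples of the single lines. The fitted log2 fold change against control, given as a description without its SE, was 5.15 for ATP4B-DTR, 5.49 for GIF-DTR and 6.53 for GIF/ATP4B-DTR, folds of 35.6, 45.0 and 92.3. In descending order of fold change Cftr ranked 48, 48 and 31 of 14889 genes. With only 13 control counts in all, the size of these folds rests on few reads.

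Between the lines, which the choice of Cftr did not use, GIF/ATP4B-DTR exceeded ATP4B-DTR by 1.37 ± 0.30 on the log2 scale and GIF-DTR by 1.04 ± 0.30. Neither passed edgeR's test over all genes (adjusted p = 0.135 and 0.110). DESeq2, which called more genes in these comparisons, gave 1.38 (adjusted p = 0.00352) and 1.05 (adjusted p = 0.0251). It was the only 1 of 18 alternatives past the threshold in each. Leaving out a sample gave 1.08 to 1.51 and 0.74 to 1.35. The samples did not overlap in either comparison, as was the case for 15.1% and 26.4% of all genes. GIF-DTR exceeded ATP4B-DTR by 0.34 ± 0.30 (adjusted p = 0.777), within the spread of the samples.

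Reads of the antisense gene Gm15592, which overlaps Cftr on the other strand, were not in the table, and the pseudogene Gm15595 inside Cftr had 0 counts in every sample. Markers of other Cftr-expressing cells were looked for beside it. Of 6 ionocyte markers 2 could be tested and 0 changed. The defining ionocyte gene Foxi1 was at 0 in 10 of 11 samples (0.0466 CPM in ATP4B-DTR 1) and Bsnd at 0 in all, whereas the proton pump subunit Atp6v0d2, which other cells also make, carried nearly the whole sum of the list. That sum ran from 13.6 to 21.0 CPM in controls, 16.2 to 98.1 in ATP4B-DTR, 3.81 to 8.80 in GIF-DTR and 15.9 to 23.6 for GIF/ATP4B-DTR. Of 9 intestinal genes 6 were tested; 0 changed in ATP4B-DTR, and 2 rose and 0 fell in each of the other lines, where 9.97% (GIF-DTR) and 18.2% (GIF/ATP4B-DTR) of all genes were called higher. Their sum was 92.4 to 148 CPM in controls, 188 to 281 in ATP4B-DTR, 143 to 193 in GIF-DTR and 178 to 240 for GIF/ATP4B-DTR. Within that list the factors Cdx1 and Cdx2 did not exceed 0.0807 and 0.207 CPM, and Olfm4, an intestinal crypt gene, rose in GIF-DTR (1.85 ± 0.52, adjusted p = 0.0402) and GIF/ATP4B-DTR (1.74 ± 0.52, adjusted p = 0.0284). The part of intestinal-type cells in the Cftr level was not tested. Of 6 pancreatic acinar genes 3 were tested, and Cela1, which carried most of their sum, rose in ATP4B-DTR (0.94 ± 0.30, adjusted p = 0.0492), with 0 called in the other lines. The acinar sum was 23.2 to 26.1 CPM in controls, 27.4 to 70.1 in ATP4B-DTR, 41.0 to 44.9 in GIF-DTR and 21.5 to 33.7 in GIF/ATP4B-DTR. ATP4B-DTR 2 stood apart, with Ctrb1 at 5.93 and Cpa1 at 2.24 CPM, against at most 0.356 and 0.166 in the other samples; it held the lowest Cftr level of the line samples. Of 8 squamous forestomach genes 4 were at 0 throughout and 1 was tested, Krt13, which rose in ATP4B-DTR (4.24 ± 1.00, adjusted p = 0.0142). The squamous sum was at most 0.943 CPM in controls, 2.15 to 20.4 in ATP4B-DTR, 0.952 to 1.42 in GIF-DTR and 1.37 to 4.10 in GIF/ATP4B-DTR. The part of pancreas or forestomach in the Cftr level was not tested. Of 2 antral genes 2 were tested, and 1, Pdx1, was called higher in GIF-DTR (4.45 ± 1.31, adjusted p = 0.0434) and GIF/ATP4B-DTR (4.33 ± 1.30, adjusted p = 0.0274), with 0 called in ATP4B-DTR (Pdx1 at 4.01 ± 1.29, adjusted p = 0.0513). Pdx1, a factor of antrum and duodenum, was at 0.314 and 0.0554 CPM in the controls, 1.54, 0.922 and 7.08 in ATP4B-DTR, 3.41, 8.10 and 1.47 in GIF-DTR, and 7.18, 1.75 and 2.99 for GIF/ATP4B-DTR. Gast, the antral hormone gastrin, was at or below 0.0449 CPM in the controls and GIF/ATP4B-DTR, at 1.74 CPM in ATP4B-DTR 3, and at 1.94 and 1.10 in GIF-DTR 1 and 2. Summed over both antral genes the range was 0.0554 to 0.359 CPM in controls and 0.922 to 9.20 over the lines; the part of antral tissue in the Cftr and Aqp5 levels was not tested.

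Aqp5, an apical water channel of salivary, airway and pyloric glands, was the aquaporin that changed. It was at 3.10 and 2.05 CPM in the controls, 14.4, 11.02 and 15.8 in ATP4B-DTR, 24.6, 18.6 and 14.9 in GIF-DTR, and 18.8, 32.9 and 18.8 for GIF/ATP4B-DTR. All line samples were above both controls, while the lines lay close to each other. Aqp5 rose by 2.40 ± 0.34 in ATP4B-DTR (adjusted p = 0.00116), 2.90 ± 0.35 in GIF-DTR (adjusted p = 0.00118) and 3.18 ± 0.35 in GIF/ATP4B-DTR (adjusted p = 0.000134), folds of 5.30, 7.46 and 9.04. The call held in each of the 19 alternative analyses of each comparison. With the Y-linked level as a covariate the changes were 2.46, 2.98 and 3.17. Line against line, the largest difference was 0.77 ± 0.27 between GIF/ATP4B-DTR and ATP4B-DTR (adjusted p = 0.332), whose samples did not overlap, followed by 0.49 ± 0.27 between GIF-DTR and ATP4B-DTR (adjusted p = 0.595) and 0.28 ± 0.26 between GIF/ATP4B-DTR and GIF-DTR (adjusted p = 0.588). Aqp5 lies on chromosome 15 (99590782 to 99594829, plus strand) between Aqp2 (99579055 to 99584547) and Aqp6 (99601400 to 99605477). Its neighbours stayed silent, with 1 Aqp2 count in 1 sample and 0 Aqp6 counts in all 11.

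Aqp3, the glycerol-passing channel of the basolateral membrane, was the most abundant of the 7 genes in every group. It was at 170 and 91.1 CPM in the controls, 144, 179 and 179 in ATP4B-DTR, 113, 177 and 79.7 in GIF-DTR, and 265, 182 and 250 for GIF/ATP4B-DTR. The single lines overlapped the controls, and the GIF/ATP4B-DTR samples lay above the controls and the other lines. Against control its log2 fold change was 0.36 ± 0.34 in ATP4B-DTR (adjusted p = 0.486), −0.09 ± 0.33 in GIF-DTR (adjusted p = 0.896) and 0.83 ± 0.34 in GIF/ATP4B-DTR (adjusted p = 0.0839). With DESeq2 the last difference was 0.82 (adjusted p = 0.0319), and without GIF-DTR 2 it was 0.83 (adjusted p = 0.0430). It passed the threshold in only 3 of 19 alternatives. Leaving out a sample moved it between 0.45 and 1.35, the highest without control 1. GIF/ATP4B-DTR exceeded GIF-DTR by 0.92 ± 0.30 (adjusted p = 0.154; with DESeq2 0.92, adjusted p = 0.0278) and ATP4B-DTR by 0.47 ± 0.30 (adjusted p = 0.610).

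Aqp4, the water channel of deep corpus glands, was kept in the single lines and lower, with wide scatter, in GIF/ATP4B-DTR. The controls held 12.6 and 27.8 CPM, ATP4B-DTR 23.9, 24.2 and 32.9, GIF-DTR 17.8, 22.3 and 49.0, and GIF/ATP4B-DTR 5.53, 18.3 and 3.17. Samples 1 and 3 of GIF/ATP4B-DTR were the lowest of the 11, and sample 2 lay within the range of controls. The difference of GIF/ATP4B-DTR did not pass the test against control (−1.17 ± 0.72, adjusted p = 0.238), ATP4B-DTR (−1.59 ± 0.66, adjusted p = 0.445) or GIF-DTR (−1.73 ± 0.66, adjusted p = 0.225). Without GIF/ATP4B-DTR 2 it was −2.22 against control (adjusted p = 0.0232), −2.64 against ATP4B-DTR (adjusted p = 0.155) and −2.78 against GIF-DTR (adjusted p = 0.0453). Over all samples left out in turn it ran from −2.22 to −0.50, −2.64 to −1.18 and −2.78 to −1.18 in that order. It passed the threshold in 1, 0 and 1 of 19 alternatives. ATP4B-DTR and GIF-DTR were at 0.42 ± 0.72 (adjusted p = 0.714) and 0.56 ± 0.72 (adjusted p = 0.656) against control. The summed level of 7 parietal markers was 18100 and 16837 CPM in the controls, 3489 to 4930 in ATP4B-DTR, 7706 to 9856 in GIF-DTR, and 1429, 2779 and 1861 for GIF/ATP4B-DTR 1 to 3. The part of parietal cell number in the Aqp4 level was not tested. An antisense gene overlaps Aqp4 on chromosome 18 and is not in the table.

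Aqp1, the channel of capillaries and red blood cells, varied more between the 2 controls than between the groups. It was at 0.629 and 5.82 CPM in the controls, 2.84, 1.05 and 2.53 in ATP4B-DTR, 4.68, 1.77 and 1.71 in GIF-DTR, and 1.61, 1.24 and 1.14 for GIF/ATP4B-DTR. Controls 1 and 2 were the lowest and the highest of the 11 samples, so every line overlapped them. No comparison with control passed the test (log2 fold changes −0.58, −0.24 and −1.26, adjusted p from 0.226 to 0.873). The direction depended on the control kept. GIF/ATP4B-DTR was at −2.12 (adjusted p = 0.0296) without control 1 and at 1.07 (adjusted p = 0.383) without control 2. The summed level of 8 endothelial markers was 20.3 and 115 CPM in controls 1 and 2, 21.1, 12.9 and 31.4 in ATP4B-DTR, 84.0, 31.5 and 43.2 in GIF-DTR, and 7.22, 19.2 and 11.5 for GIF/ATP4B-DTR. Of these 8 markers 0 were at 0 in all samples. The fibroblast sum (6 genes) likewise differed between controls 1 and 2, 49.3 against 500 CPM. The samples with the highest endothelial sums, control 2 and GIF-DTR 1, were those with the highest Aqp1. The erythroid sum (5 genes) was 31.6 and 66.6 CPM in controls 1 and 2, 14.6, 21.3 and 12.5 in ATP4B-DTR, 94.98, 39.6 and 34.3 in GIF-DTR, and 9.68, 16.2 and 40.1 for GIF/ATP4B-DTR, highest in the same 2 samples. The part of vessels, stroma or red blood cells in the Aqp1 level was not tested.

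**Figure D2:**
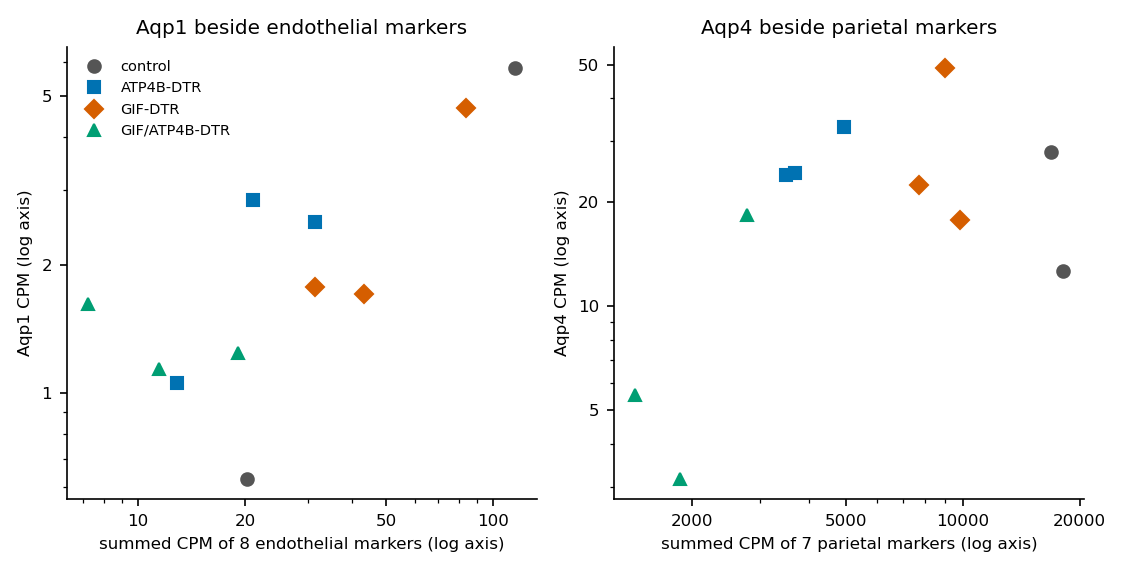
Aqp1 against the summed endothelial markers (left) and Aqp4 against the summed parietal markers (right), both as TMM-scaled CPM on log axes, with 1 point per sample. Control 1 and control 2 sit at opposite ends for Aqp1, and 2 of the 3 GIF/ATP4B-DTR samples sit lowest for Aqp4.

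Aqp11, an aquaporin of intracellular membranes, differed least. It ranged from 6.54 to 8.67 CPM in the controls, 7.58 to 9.88 in ATP4B-DTR, 5.58 to 9.48 in GIF-DTR and 5.22 to 12.2 for GIF/ATP4B-DTR. Its log2 fold changes against control were 0.16, 0.03 and 0.14 (SE 0.34 each, adjusted p from 0.762 to 0.960), and all groups overlapped. Its counts were fractional in 7 of 11 samples, those of Aqp3 in 3 and those of the other members in 0, so part of the Aqp11 signal may belong to a similar sequence elsewhere, and its value is uncertain. Aqp8, a channel of pancreas and colon, had 2 and 6 counts in the controls, 5, 3 and 0 in ATP4B-DTR, 1 in each GIF-DTR sample and 8, 4 and 0 in GIF/ATP4B-DTR, at most 0.333 CPM. At this depth no difference of Aqp8 could be detected.

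The other members of the family were nearly silent. Mip (Aqp0), Aqp2, Aqp6, Aqp7, Aqp9 and Aqp12 had too few counts to be tested, 0 of 6. Aqp7 and Aqp9 reached at most 9 counts in a sample, Mip 8, Aqp2 and Aqp12 1, and Aqp6 0. Of the 12 aquaporin genes in the table, then, 5 were expressed above the limit of the test, and Aqp5 was the one among them that was called in any line against control by edgeR.

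**Figure D3:**
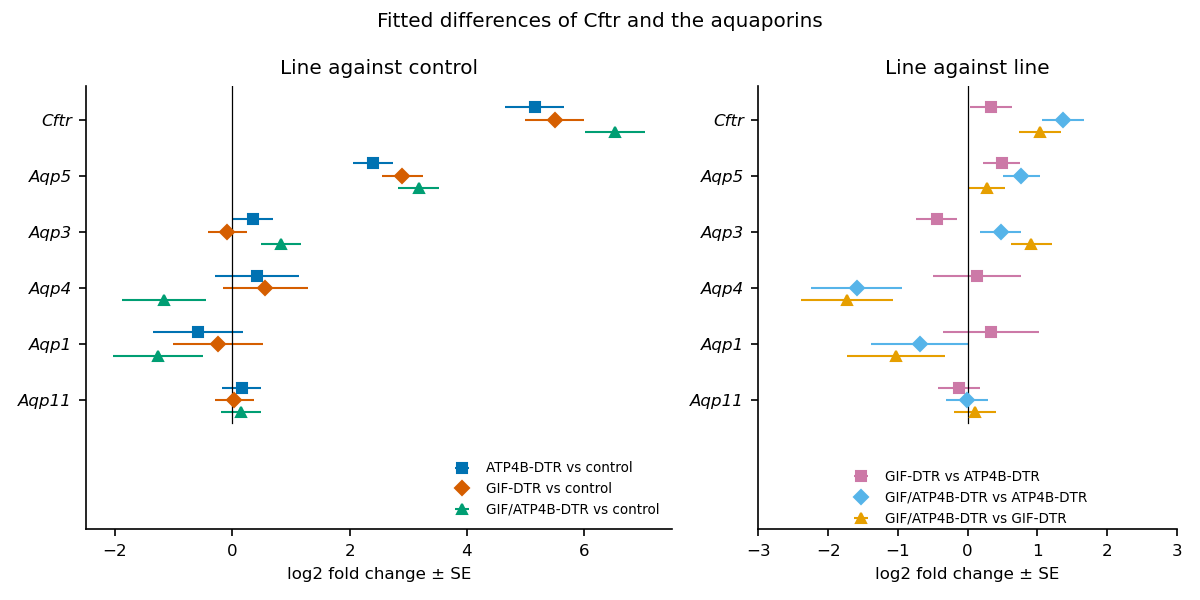
Fitted log2 fold changes ± SE of the 6 tested genes, each line against control (left) and line against line (right). Aqp5 stands apart from 0 in all 3 comparisons with control, at 2.40 to 3.18, and the bars of the other aquaporins reach or cross 0 in 1 or more of them. Cftr, chosen for its rise over control, lies at 5.15 to 6.53 there, and nothing is read from its bars in those comparisons.

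Dividing CPM by exon length puts the genes on 1 scale within a sample; the length is the union of all annotated exons, which lowers the value of genes with long or alternative exons such as Aqp11. In the controls Aqp3 was highest at 71.4 ± 30.6 CPM per kb (mean ± SD, n = 2), followed by Aqp4 at 3.24 ± 1.73. Aqp1 at 1.23 ± 1.398, Aqp5 at 0.991 ± 0.285 and Aqp11 at 0.807 ± 0.160 were level with each other within their spread. Aqp8 at 0.134 ± 0.109 and Cftr at 0.0410 ± 0.0075 came last. Both controls had Aqp3 first and Cftr last. In ATP4B-DTR (n = 3) Aqp3 was at 91.4 ± 11.2 CPM per kb, Aqp5 at 5.29 ± 0.95, Aqp4 at 4.33 ± 0.82, Cftr at 1.497 ± 0.318, Aqp11 at 0.901 ± 0.130, Aqp1 at 0.815 ± 0.363 and Aqp8 at 0.0768 ± 0.0738. In GIF-DTR (n = 3) the order was Aqp3 (67.3 ± 27.0), Aqp5 (7.45 ± 1.87), Aqp4 (4.77 ± 2.71), Cftr (1.89 ± 0.75), Aqp1 (1.04 ± 0.65), Aqp11 (0.827 ± 0.212) and Aqp8 (0.0266 ± 0.0028). In GIF/ATP4B-DTR (n = 3) Cftr, at 3.89 ± 1.23 CPM per kb, ranked 3 after Aqp3 (127 ± 24) and Aqp5 (9.03 ± 3.13), ahead of Aqp4 (1.44 ± 1.31), Aqp11 (0.893 ± 0.376), Aqp1 (0.507 ± 0.095) and Aqp8 (0.104 ± 0.102). Judged by the SDs, Aqp5 and Aqp4 did not differ beyond their spread in the single lines, nor did Aqp11 and Aqp1 in any group, nor Cftr and Aqp1 in GIF-DTR, where sample 1 held less Cftr (1.18) than Aqp1 (1.78). Within samples, however, Aqp5 was above Aqp4 in each ATP4B-DTR sample and Aqp11 above Aqp1 in each GIF/ATP4B-DTR sample. For these pairs the order went both ways in the other groups named. By group means Cftr thus moved from rank 7 in the controls to rank 4 in the single lines and rank 3 in GIF/ATP4B-DTR, as its choice implies, and Aqp3 remained first throughout.

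The genes whose profile over the 11 samples was nearest to each member were found by the root mean square difference of log2 CPM after each gene's mean was subtracted, among 12165 genes. Nearest to Cftr was Cldn2, a claudin that forms cation-permeable tight junctions, at 0.50 log2 units, where the spread of Cftr itself was 2.17. Cldn2 was at 0.135 and 0.111 CPM in the controls, 6.10, 3.51 and 10.7 in ATP4B-DTR, 10.5, 13.5 and 17.6 in GIF-DTR, and 19.1, 42.5 and 24.4 for GIF/ATP4B-DTR, so that GIF/ATP4B-DTR 2 was the highest sample of both genes. Fetub (0.68), Kcne3 (0.70), Hist1h4n (0.73) and Cyp2d26 (0.83) came next. Fetub averaged 0.228 CPM in the controls and 9.27 in GIF/ATP4B-DTR, and Cyp2d26 0.688 and 13.1. Hist1h4n reached 0.0898 CPM in the controls and 4.28 in the lines. Nearest to Aqp5 were Cdca7 (0.33), Cenps (0.33) and Smpdl3b (0.34), where Aqp5 had a spread of 1.15. Cdca7 averaged 3.35 CPM in the controls and 14.1, 21.5 and 24.5 in the 3 lines. Nearest to Aqp4 were Rhbdl1 (0.58), Otulinl (0.62) and Kcne2 (0.63), a potassium channel subunit of parietal cells, against a spread of 1.08. Aqp1 was nearest to Podn (0.22), Colec12 (0.25) and C1s1 (0.26), Aqp3 to Gch1 (0.19), P2rx4 (0.20) and Kbtbd11 (0.21), and Aqp11 to Stk38 (0.17), Mttp (0.18) and Polm (0.18), against spreads of 0.87, 0.52 and 0.34. These are descriptions, and the samples share their groups and scaling.

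**Figure D4:**
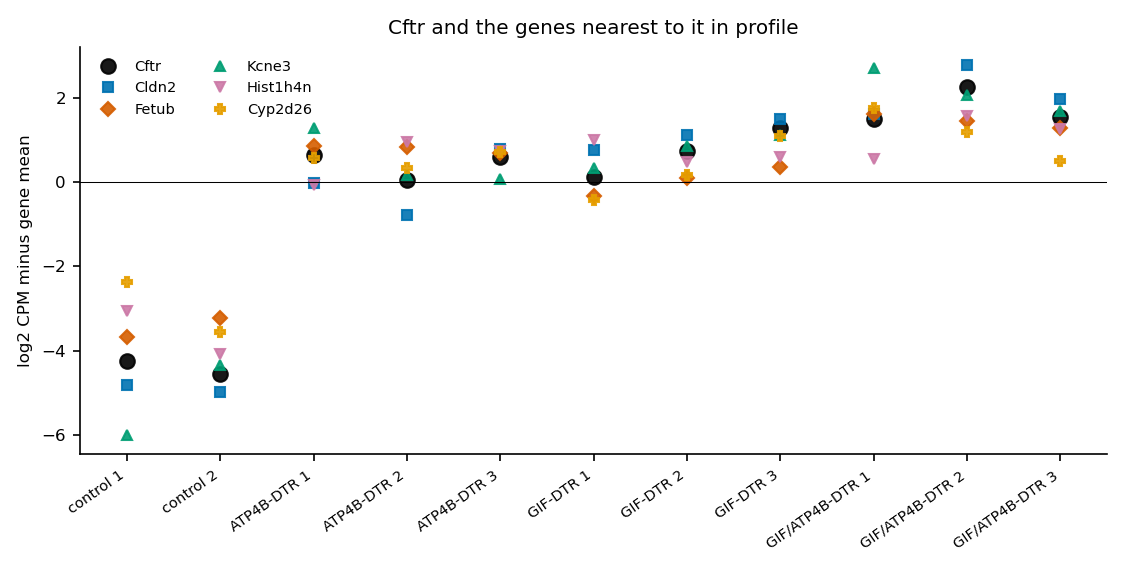
log2 CPM minus each gene's mean in the 11 samples, for Cftr and the 5 genes nearest to it. The 2 controls lie below −2 for all 6 genes, and the GIF/ATP4B-DTR samples hold the highest points of Cftr and Cldn2.

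Chloride secretion needs a basolateral side as well: a cotransporter that loads chloride, potassium channels that recycle potassium, and the sodium pump. Of the 10 genes listed for it, 10 were tested, and 1 rose and 3 fell in ATP4B-DTR, 1 and 2 in GIF-DTR, and 2 and 5 for GIF/ATP4B-DTR, with medians of −0.33, −0.27 and −0.39. Over all genes the shares called higher and lower were, as above, 12.2% and 9.39%, 9.97% and 6.82%, and 18.2% and 15.4%, with medians of −0.01, −0.01 and −0.04, and the counts of this list and the following ones are to be read beside those. Kcne3, the subunit that holds the potassium channel Kcnq1 open in intestine and airway, rose in all 3 lines, and Kcnn4, another potassium channel, passed the test in GIF/ATP4B-DTR (0.62 ± 0.18, adjusted p = 0.0213), where its samples overlapped those of ATP4B-DTR. Kcne3 was at 0.135 and 0.610 CPM in the controls, 34.9, 15.98 and 14.95 in ATP4B-DTR, 17.9, 25.9 and 30.9 in GIF-DTR, and 92.8, 60.0 and 46.3 for GIF/ATP4B-DTR. Its log2 fold changes of 5.94 ± 0.71, 6.12 ± 0.71 and 7.54 ± 0.73 had adjusted p of 0.00084, 0.00156 and 0.000124. The lists, Kcne3 included, were chosen with earlier results of these data known, and the p-values of their genes are to be read with that limit. The controls held only 3 and 11 counts of Kcne3, and its log2 fold changes were 5.16, 5.34 and 6.76 without control 1 and 7.29, 7.47 and 8.89 without control 2, all past the threshold. Kcnq1 itself, which parietal cells pair with Kcne2, fell in GIF/ATP4B-DTR (−1.11 ± 0.26, adjusted p = 0.00812), from 140 and 144 CPM to 86.8, 70.2 and 40.7. Slc12a2, the cotransporter that loads chloride, was at 689 and 610 CPM in the controls. It fell by 0.63 ± 0.15 on the log2 scale in ATP4B-DTR (adjusted p = 0.0148) and by 0.55 ± 0.16 in GIF/ATP4B-DTR (adjusted p = 0.0188). Slc4a2, the basolateral anion exchanger of parietal cells, fell in every line, by 1.62 ± 0.18, 0.89 ± 0.18 and 2.35 ± 0.18 (adjusted p = 0.000336, 0.00878 and 1.77e-05). Slc4a2 counts were fractional in all 11 samples. Atp1b1, a sodium pump subunit, fell by 0.75 ± 0.16 in GIF-DTR (adjusted p = 0.0116). Of 7 parietal markers, 5, 4 and 7 were lower in the 3 lines, and their part in the falls of Slc4a2, Kcnq1 and Slc12a2 was not tested. Without control 1, the calls of Slc4a2 and Atp1b1 in GIF-DTR and of Slc12a2 in ATP4B-DTR were lost, and the same 3 calls were lost with the Y-linked covariate, at log2 fold changes of −1.10 (Slc4a2), −0.55 (Atp1b1) and −0.71 (Slc12a2).

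Other anion channels and exchangers went in both directions. Of 17 genes listed 16 were tested, and 3 rose and 5 fell in ATP4B-DTR, 3 and 2 in GIF-DTR, and 3 and 6 for GIF/ATP4B-DTR, with medians of −0.12, −0.38 and −0.19. Those that rose were of the Clca family, regulators of calcium-activated chloride channels, and Slc26a4, an apical chloride and bicarbonate exchanger at or below 0.708 CPM in GIF-DTR and 0.463 for GIF/ATP4B-DTR, whose calls held in 9 of 18 and 9 of 17 alternatives, the first not with the Y-linked covariate (2.44 against 4.20). Clca3b had 0 counts in both controls and 1.19 ± 0.27, 0.972 ± 0.324 and 1.07 ± 0.77 CPM (SD, n = 3) in the 3 lines, at least 7.88-, 6.46- and 7.11-fold above the level of 3 counts per control library. Clca4a rose from 0.808 and 0.388 CPM to 12.4, 9.66 and 10.8 in GIF/ATP4B-DTR (4.16 ± 0.75, adjusted p = 0.00203), by 3.76 ± 0.74 in ATP4B-DTR (adjusted p = 0.00595), and to 4.02, 6.02 and 1.79 CPM in GIF-DTR (2.69 ± 0.72, adjusted p = 0.0298). Clca1 reached 1822, 3423 and 540 CPM in ATP4B-DTR, against 127 and 44.1 in the controls (4.49 ± 1.08, adjusted p = 0.0201). The call of Clca1 was lost without either control and with the Y-linked covariate (4.59), that of Clca4a in ATP4B-DTR without control 2. The Clca4a call in GIF-DTR was lost without either control, without GIF-DTR 1 or 2, and with the Y-linked covariate (1.32, adjusted p = 0.465). Slc26a7, a basolateral anion exchanger of parietal cells, fell most. It went from 78.3 and 71.4 CPM to between 0.233 and 0.911 in ATP4B-DTR and at most 0.463 in GIF/ATP4B-DTR (adjusted p = 0.000125 and 3.18e-05), and to 31.4, 22.9 and 17.9 in GIF-DTR (adjusted p = 0.0325, lost with DESeq2, with no filter on low counts, with the Y-linked covariate at −3.12 against −1.64, and without either control or GIF-DTR 2 or 3).

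**Figure D5:**
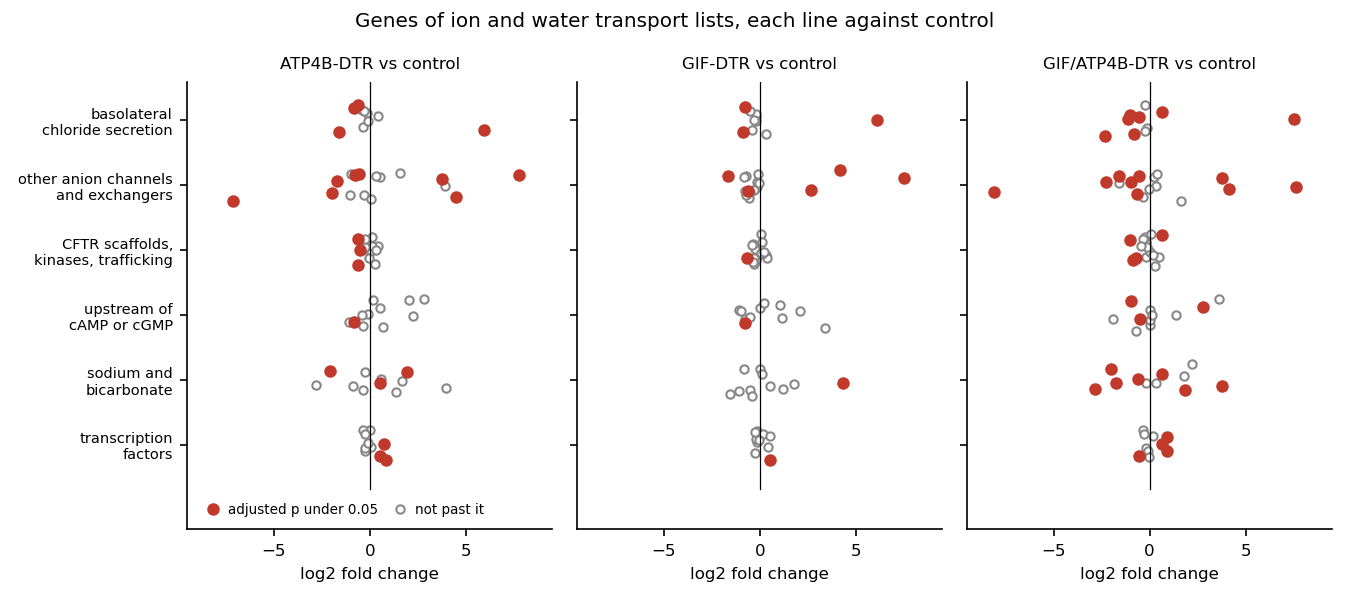
log2 fold change of each tested gene of 6 ion transport lists, each line against control; filled points have an adjusted p under 0.05 and open points do not, and vertical scatter within a list only separates points. The basolateral list holds 1 point far to the right, Kcne3, with its other called points near or below 0.

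Proteins that anchor, phosphorylate or traffic CFTR formed the next list. Of its 17 genes for scaffolds, kinases and trafficking 15 were tested, and 0 rose and 3 fell in ATP4B-DTR, 0 and 1 in GIF-DTR, and 1 and 3 for GIF/ATP4B-DTR, with medians of −0.21, −0.17 and −0.20. Ezr, the ezrin that anchors CFTR to actin and is abundant in parietal cells, fell from 2201 and 1652 CPM to 1007, 979.9 and 1159 in GIF/ATP4B-DTR (−0.88 ± 0.18, adjusted p = 0.00307), by 0.60 ± 0.18 in ATP4B-DTR (adjusted p = 0.0308) and by 0.65 ± 0.18 in GIF-DTR (adjusted p = 0.0284). The Ezr calls in the single lines were lost with the Y-linked covariate (−0.69 and −0.78) and without control 1, in ATP4B-DTR without any of its 3 samples, and in GIF-DTR without its samples 1 or 3. Prkacb, a catalytic subunit of protein kinase A, fell by 0.72 ± 0.20 in GIF/ATP4B-DTR (adjusted p = 0.0169, lost without control 2) and by 0.61 ± 0.20 in ATP4B-DTR (adjusted p = 0.0476), where the call held in 7 of 19 alternatives and was lost with the Y-linked covariate (−0.46) and without either control. Snap23, a protein of membrane fusion, fell by 0.52 ± 0.15 in ATP4B-DTR (adjusted p = 0.0316, lost without either control or ATP4B-DTR 1). All 3 falls of the list in ATP4B-DTR, those of Ezr, Prkacb and Snap23, were thus lost without control 1. In GIF/ATP4B-DTR Slc9a3r2, a scaffold that binds the tail of CFTR, fell by 1.02 ± 0.29 (adjusted p = 0.0208, lost without either control), and Ahsa1, a cochaperone of Hsp90, rose by 0.64 ± 0.21 (adjusted p = 0.032, held in 14 of 19 alternatives and lost without control 2). Of the 11 receptors, ligands and enzymes that set cyclic AMP or cyclic GMP, 0 rose and 1 fell in each single line, and 1 rose and 2 fell in GIF/ATP4B-DTR. Adcy6, an adenylate cyclase, fell in each line, by 0.81 ± 0.17, 0.78 ± 0.17 and 0.99 ± 0.17 (adjusted p = 0.00709, 0.0123 and 0.0013). The calls of Adcy6 in the single lines were lost without control 1, and that in GIF-DTR also with the Y-linked covariate (−0.92). Guca2b, the peptide uroguanylin that activates guanylate cyclase C, rose in GIF/ATP4B-DTR from 0.269 and 0.111 CPM to 0.444, 2.01 and 1.57 (2.75 ± 0.75, adjusted p = 0.015, lost without control 2). Pde4d, a phosphodiesterase that breaks down cyclic AMP, fell there by 0.51 ± 0.17 (adjusted p = 0.0371, held in 13 of 19 alternatives and lost without either control).

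Of 11 sodium and bicarbonate transport genes, 2 rose and 1 fell in ATP4B-DTR, 1 and 0 in GIF-DTR, and 3 and 4 for GIF/ATP4B-DTR. Car12, a membrane carbonic anhydrase of secretory ducts, rose from 0.568 ± 0.295 CPM (n = 2) to 2.21 ± 0.39 in ATP4B-DTR (adjusted p = 0.0171) and 2.01 ± 0.79 in GIF/ATP4B-DTR (adjusted p = 0.0151; SD, n = 3 each), and both calls were lost without control 1, the first also without ATP4B-DTR 1 and the second without GIF/ATP4B-DTR 2. Car9, another carbonic anhydrase, fell by 2.05 ± 0.55 and 2.04 ± 0.55 in the same lines (adjusted p = 0.0287 and 0.0201). Both were lost without control 1, and that in ATP4B-DTR also without control 2 or any of its 3 samples. Car4, a membrane carbonic anhydrase, fell by 2.83 ± 0.94 in GIF/ATP4B-DTR (adjusted p = 0.0372, lost without control 2 or any of its 3 samples). Slc9a3, the apical sodium and proton exchanger of intestine, went from 1.17 and 1.22 CPM to 54.97, 9.09 and 9.28 in GIF-DTR (adjusted p = 0.0493) and 11.9, 10.2 and 27.1 in GIF/ATP4B-DTR (adjusted p = 0.046). The Slc9a3 calls held in 6 and 10 of 19 alternatives, and both were lost with the Y-linked covariate (5.22 and 3.74) and without either control, ATP4B-DTR 1 or 2, or any GIF/ATP4B-DTR sample; that in GIF-DTR was also lost without any of its own samples. Slc4a7, a sodium bicarbonate cotransporter, rose by 0.55 ± 0.13 in ATP4B-DTR (adjusted p = 0.0116, lost without either control and, at 0.51, with the Y-linked covariate) and by 0.63 ± 0.13 in GIF/ATP4B-DTR (adjusted p = 0.00328).

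Transcription factors known to act on Cftr in intestine or airway were tested for 10 of 11 genes. In ATP4B-DTR 3 rose and 0 fell, in GIF-DTR 1 and 0, and in GIF/ATP4B-DTR 3 and 1. Ehf, an epithelial ETS factor, rose from 53.1 and 53.0 CPM to 117, 92.6 and 90.5 in GIF/ATP4B-DTR (0.91 ± 0.19, adjusted p = 0.00393) and to 108, 94.3 and 66.6 in ATP4B-DTR (0.76 ± 0.19, adjusted p = 0.0168, lost without either control or ATP4B-DTR 1). Foxa1 rose by 0.56 ± 0.15, 0.54 ± 0.15 and 0.63 ± 0.15 in the 3 lines (adjusted p = 0.0193, 0.027 and 0.00675), and the 3 calls were lost without control 2. The Foxa1 call in ATP4B-DTR was also lost without its sample 1, and that in GIF-DTR with the Y-linked covariate (0.68) and without control 1 or its samples 2 or 3. Klf5 rose by 0.83 ± 0.25 in ATP4B-DTR and 0.89 ± 0.26 for GIF/ATP4B-DTR (adjusted p = 0.0374 and 0.0198), held in 10 and 16 of 19 alternatives and in neither case without either control, that in ATP4B-DTR not with the Y-linked covariate (0.90). Foxa2 fell by 0.53 ± 0.14 in GIF/ATP4B-DTR (adjusted p = 0.0117, lost without control 1 and with the 2 compared groups alone). Without control 2 the calls of Ehf, Foxa1 and Klf5 in ATP4B-DTR, the 3 rises of the list there, were all lost.

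Line against line, 0 of the 6 tested members passed edgeR's adjusted threshold in any of the 3 comparisons. Over all genes 0.490% were called between GIF-DTR and ATP4B-DTR (0.403% higher and 0.0873% lower), 0.00% between GIF/ATP4B-DTR and ATP4B-DTR, and 2.53% between GIF/ATP4B-DTR and GIF-DTR (0.336% higher and 2.19% lower). At an unadjusted p under 0.05 the members numbered 0, 3 (Cftr, Aqp4 and Aqp5) and 3 (Cftr, Aqp3 and Aqp4) in that order, beside 1460, 1554 and 2687 of all 14889 genes. With DESeq2 and adjustment they numbered 0, 1 (Cftr) and 2 (Cftr and Aqp3), beside 384, 294 and 1005 genes called. Between GIF/ATP4B-DTR and ATP4B-DTR the smallest adjusted p of any gene was 0.0538, while 1554 genes had an unadjusted p under 0.05.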

How the data were processed

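RNA from gastric corpus mucosa was made into stranded poly(A) libraries, per the labels' protocols. The authors deposited 1 table with each gene's expected count (an estimated count, not normalized), made from the reads with tools not given in the sources used here. The unit is read from the values: 30.7% of nonzero entries are fractional. The build is mm10, per the submitters' processing notes, and the annotation is not given either. Expected counts were rounded before any model was fitted, since the tests had been planned for counts. Symbols were matched by gene identifier (99.2% of 34866). Positions and exon lengths come from GENCODE M21, promoters from RefSeq, both on GRCm38. No proteins are shown.

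The samples were grouped by genotype label. In edgeR 4.0.16 (R 4.3.3), genes passing filterByExpr (14889) were TMM-scaled and the 11 samples entered 1 robust quasi-likelihood model with a coefficient for each group. The SE is the log2 fold change divided by the square root of F. Tested on simulated data in which 200 of 14889 genes changed 4-fold, it recovered from 67.0% to 75.5% of them over the 6 comparisons, and from 3.52% to 7.59% of calls were false. Alternatives were DESeq2 1.42.0 (its size factors, and its Wald test), TMM without the 50 most abundant genes, no filter, a minimum of 10 counts throughout, moderation that was not robust, the 2 compared groups alone, a Y-linked covariate, and leaving out each sample; with 1 control left, that control is assumed to vary like the other groups. Floors of 3 counts cover counting error only.

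Members and lists were chosen with earlier results of these data known. Named are the members, the targeted genes, up to 4 genes per list and comparison with an adjusted p under 0.05 and no overlap of samples, and, by profile, 5 genes nearest Cftr and 3 nearest each tested aquaporin (mean of at least 1 CPM, prior count 2). Slc12a2 and Slc4a7 in GIF/ATP4B-DTR and the marker genes beside results were named after their values were seen. Some listed genes that the rule names are not reported here.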

Additional observations from a re-analysis of the deposited data

Results flagged for a closer look

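The lines differed from each other, by a direct edgeR test between them, in genes that are not members. Slc26a7 was at a higher level in GIF-DTR samples than in those of ATP4B-DTR (5.51, adjusted p = 0.00272) and lower in GIF/ATP4B-DTR than in GIF-DTR (−6.50, adjusted p = 0.000501), as log2 fold changes. The targeted gene Atp4b moved the same way (2.22, adjusted p = 0.0248, and −3.27, adjusted p = 0.000946), and Atp4a was lower in GIF/ATP4B-DTR than in GIF-DTR (−2.13, adjusted p = 0.0032). Between those last lines Slc4a2 was lower (−1.46, adjusted p = 0.000946) and Slc4a7 higher (0.54, adjusted p = 0.0302) in GIF/ATP4B-DTR. With the Y-linked covariate, which differs fully between those lines, the calls of Slc26a7, Slc4a2 and Slc4a7 between GIF/ATP4B-DTR and GIF-DTR were lost, at log2 fold changes of −4.94, −1.23 and 0.61 (adjusted p = 0.607, 0.298 and 0.619), and Slc4a7 held in 12 of 19 alternatives.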

How the results depend on the processing

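Aqp5 was called higher than control in each line under the 19 alternatives run. Nothing is read from the calls of Cftr against control, which its selection implies; with at least 10 counts in every sample Cftr was not tested (controls 8 and 5 counts), which left 1 member called in each line. Aqp3 joined them in GIF/ATP4B-DTR with DESeq2. Leaving out a sample gave from 2 to 4 members called there (4 without control 1), from 0 to 1 between GIF/ATP4B-DTR and GIF-DTR, and no other change. DESeq2 called 1 member (GIF/ATP4B-DTR against ATP4B-DTR) and 2 members (against GIF-DTR). Genes called numbered 3211, 2500 and 5005 against control and 73, 0 and 376 between lines (GIF-DTR against ATP4B-DTR, then GIF/ATP4B-DTR against ATP4B-DTR and GIF-DTR). With the Y-linked covariate they were 1960 in ATP4B-DTR, 480 in GIF-DTR, and 21, 1 and 15 between lines; with DESeq2 384, 294 and 1005 between lines; and between GIF/ATP4B-DTR and ATP4B-DTR 57 with no filter and 1 with the 2 groups alone. Leaving out a sample gave 1315 to 3329, 871 to 2629, 2874 to 5042, 17 to 140, 0 to 43 and 160 to 393. The lowest count in each comparison with control came without control 2; for GIF-DTR it was 1136 without control 1 and 1613 and 1091 without GIF-DTR 2 and 3. Between lines the lowest came without ATP4B-DTR 1 or 2 (17) and GIF/ATP4B-DTR 3 (160), the highest without ATP4B-DTR 3 (140) and GIF/ATP4B-DTR 2 (43). With the Y-linked covariate Aqp1 was at 0.25 and Aqp11 at −0.033 in GIF-DTR against control, and Aqp11 at 0.036 in GIF/ATP4B-DTR against ATP4B-DTR, each the other sign. Leaving out a sample turned the sign of uncalled values, with ranges against control of −1.44 to 1.75 (ATP4B-DTR), −1.10 to 2.10 (GIF-DTR) and −2.12 to 1.07 (GIF/ATP4B-DTR) for Aqp1, −0.029 to 0.88 and −0.47 to 0.44 for Aqp3, −0.041 to 1.09 and −0.022 to 1.23 for Aqp4 (single lines), and −0.034 to 0.38, −0.15 to 0.26 and −0.22 to 0.39 for Aqp11. Between GIF-DTR and ATP4B-DTR they were −0.30 to 0.60 for Aqp1, −0.42 to 0.40 for Aqp4 and −0.28 to 0.067 for Aqp11. For GIF/ATP4B-DTR they were −0.38 to 0.24 (Aqp11, against ATP4B-DTR), −0.26 to 0.36 (Aqp11, against GIF-DTR) and −0.044 to 0.48 (Aqp5, against GIF-DTR). The cause of these changes was not tested. Pathway genes entered this tally only where already called without overlap of samples, at most 4 per list and comparison, so no call could be gained. They kept their direction and side in 877 results under an alternative, a missing adjusted p counting as kept, and lost the call in 166. With the 2 compared groups alone, calls against control were lost for Ezr, Prkacb, Ehf, Klf5 and Car12 in ATP4B-DTR and for Ezr and Slc9a3 in GIF-DTR. In GIF/ATP4B-DTR those of Car12, Car9, Slc9a3r2, Ahsa1, Guca2b, Pde4d and Foxa2 were lost. No paired analysis was possible because the replicate numbers of the lines are only accession order. With 2 controls and 13 Cftr counts in them, depth limits the size of the Cftr fold.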
